A study of Homo sapiens with 6 samples.

Results

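The genes described here are the 7 enzymes and cofactors that place, copy or remove DNA methylation: the writers DNMT1, DNMT3A, DNMT3B and UHRF1 and the erasers TET1, TET2 and TET3. They were taken by symbol from a list that was chosen with earlier results of these data known. All 7 were found among the 36601 genes of the gene table. Their RNA was counted by Seq-Well S3, a microwell method in which each bead tags the RNA of a cell with a barcode and each molecule with a unique molecular identifier (UMI), in SK-N-BE(2)-C cells, an established human neuroblastoma line. Cells were treated with DMSO (the solvent control), with TSA (trichostatin A, an inhibitor of the catalytic site of histone deacetylases) or with E6R, a compound known here by its code name, with 2 libraries per treatment. All 3 groups are the same single cell line. The title of the study speaks of an inhibitor of the HDAC complex that is non-enzymatic, and the design text calls the agents HDAC inhibitors. Dose and time are not given in the sources used here, and nothing states that the 2 libraries of a treatment came from separate cultures, so p-values measure only the spread between these libraries, which may be technical.

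In vertebrate DNA, a methyl group is placed on cytosine, mostly where a guanine follows it, and the mark is copied after each round of replication. UHRF1 binds the half-methylated sites that replication leaves and recruits DNMT1, which methylates the new strand, while DNMT3A and DNMT3B set methylation at new sites. TET1, TET2 and TET3 oxidise methylcytosine, after which the base is diluted by replication or cut out by base excision repair. The RNA levels given below say nothing of enzyme activity or of methylation itself, which was not measured here.

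In GENCODE 29 coordinates on GRCh38, the 7 genes are protein coding and lie on 5 chromosomes. DNMT1 lies at chr19:10133345-10231286 on the minus strand and UHRF1 at chr19:4903080-4962154 on the plus strand. DNMT3A lies at chr2:25227855-25342590 on the minus strand and DNMT3B at chr20:32762385-32809356 on the plus strand. TET1 lies at chr10:68560656-68694482, TET2 at chr4:105145875-105279816 and TET3 at chr2:73986404-74108176, all on the plus strand. Gene totals in the files cover the whole gene and do not separate exons, introns or untranslated regions. DNMT1 overlaps S1PR2 on the same strand over 10.1% of its length, and TET2 overlaps TET2-AS1 on the opposite strand over 5.01%. The counting rule for strand is not given in the sources used here, so reads from these overlaps could be assigned to either gene.

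The bases just before the start sites are shown for UHRF1 and for the 4 members whose level differed between treatments, so that the letters can be read beside the levels. RefSeq (GRCh38.p14) lists 18 windows for the 7 genes, each with 250 bases before and 50 after a start, and only the 250 bases before the start are printed, for windows that hold no annotated untranslated base. Where a gene has several such windows, the one nearest to the gene's start as GENCODE draws it is shown. Of those not shown, DNMT3A windows 2 and 4 held 3 and 4 GC boxes, and TET1 windows 2 and 3 held 2 CCAAT each, with 1 TATAAA in window 2. Capitals mark letters found by search, on either strand, of CCAAT, of GGGCGG (a GC box), of TATAAA and of 4 sequences bound by E2F factors (TTTCCCGC, TTTCGCGC, TTTGCCGC and TTTGGCGC). All are written 5′ to 3′ on the strand of the gene.
UHRF1, window 2 of 3, chr19:4909894-4910143, plus strand: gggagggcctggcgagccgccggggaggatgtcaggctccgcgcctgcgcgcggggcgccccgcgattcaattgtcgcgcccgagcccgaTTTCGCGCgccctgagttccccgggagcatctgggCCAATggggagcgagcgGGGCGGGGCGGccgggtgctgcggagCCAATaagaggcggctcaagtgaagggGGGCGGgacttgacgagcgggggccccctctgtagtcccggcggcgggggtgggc
DNMT3A, window 3 of 6, chr2:25342591-25342840, minus strand: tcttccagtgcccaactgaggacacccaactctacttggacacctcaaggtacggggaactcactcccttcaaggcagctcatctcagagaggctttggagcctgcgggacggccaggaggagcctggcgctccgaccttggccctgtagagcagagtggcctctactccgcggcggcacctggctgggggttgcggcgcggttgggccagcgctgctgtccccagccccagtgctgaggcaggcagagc
DNMT3B, window 1 of 1, chr20:32779602-32779851, plus strand: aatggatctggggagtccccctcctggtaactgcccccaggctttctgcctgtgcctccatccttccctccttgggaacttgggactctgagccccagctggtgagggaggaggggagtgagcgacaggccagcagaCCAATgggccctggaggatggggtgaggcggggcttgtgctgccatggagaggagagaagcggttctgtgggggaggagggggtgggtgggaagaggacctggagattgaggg
TET1, window 1 of 3, chr10:68560087-68560336, plus strand: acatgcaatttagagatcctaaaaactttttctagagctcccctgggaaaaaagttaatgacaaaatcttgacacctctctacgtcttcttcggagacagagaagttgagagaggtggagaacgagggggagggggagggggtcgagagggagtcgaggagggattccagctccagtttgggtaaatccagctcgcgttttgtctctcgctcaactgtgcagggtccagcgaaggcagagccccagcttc
TET2, window 1 of 2, chr4:105145625-105145874, plus strand: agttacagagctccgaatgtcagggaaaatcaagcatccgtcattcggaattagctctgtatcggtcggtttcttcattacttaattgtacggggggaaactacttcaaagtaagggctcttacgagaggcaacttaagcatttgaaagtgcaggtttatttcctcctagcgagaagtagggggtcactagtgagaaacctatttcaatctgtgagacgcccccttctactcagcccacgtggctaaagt

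The E2F letters occurred in 3 of the 18 windows of 300 bases, against 3.31% of the 35116 windows of all genes. These 3 belonged to the maintenance pair, DNMT1 and UHRF1, and are shown as 30 bases with the match in capitals. The match of DNMT1 runs across its start site, from base -2 to base 6.
DNMT1, chr19:10194937-10194966, minus strand: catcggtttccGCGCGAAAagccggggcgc
UHRF1, window 1, chr19:4909476-4909505, plus strand: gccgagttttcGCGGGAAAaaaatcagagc
UHRF1, window 2, chr19:4909973-4910002, plus strand: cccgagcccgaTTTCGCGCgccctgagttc

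CCAAT was in 6 of the 18 windows and in 34.6% of all windows, GGGCGG in 11 and 45%, and TATAAA in 1 and 11.5%. Outside these excerpts of 30 bases, matches in the 50 bases after a start are counted but not printed. The windows differ in CG dinucleotides, the sites that the enzymes act on, of which all windows held a median of 14. UHRF1 windows held 36 to 46, the DNMT1 window 30 and the TET3 windows 33 to 45. TET1 windows held 6 to 11, and the single DNMT3B window held 3. Many of the starts lie inside the gene as GENCODE draws it, so their windows do not describe its 5′ end. The DNMT3B start lies 17467 bases inside, the DNMT1 start 36333, the UHRF1 starts 6421 to 7287, and the starts of TET1 windows 2 and 3 lie 39612 and 39818 inside. DNMT3A windows 4 to 6 have starts 90275 to 90459 bases inside, TET2 window 2 one at 1001 and TET3 window 2 one at 16288. Starts of GENCODE transcripts lay 19 bases from the DNMT1 start, 0 to 3 from the UHRF1 starts and 0 from the DNMT3B start. They lay 4 to 48 bases from the starts of DNMT3A windows 4 to 6, but 39612 and 39818 from those of TET1 windows 2 and 3. A match is a run of letters only, and binding was not measured here.

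After keeping barcodes with at least 500 genes and at most 20% of UMIs from mitochondrial (MT-) genes, 17589 cells remained, 1861 to 3946 per library, with 4206366 to 26180262 UMIs per library and a median of 1053.5 to 1880 UMIs per cell. Pairs of libraries shared 11 to 58 cell barcodes, where 0.274 to 0.774 would be shared by barcodes drawn at random. The cause of this sharing was not tested. All 11 neuroblastoma markers were detected in every library, with a summed level of 2928 to 3697 CPM under DMSO, 2859 to 2994 under TSA and 3534 to 4350 under E6R. The 11 markers of other cell types summed to 31.5 to 166 CPM under DMSO, 86.0 to 138 under TSA and 24.0 to 311 under E6R. Of these, SOX10, PTPRC and CD3E stood at 0 to 9 UMIs per library, while DCN, PECAM1 and ACTA2 were higher in replicate 1 than in replicate 2 of each treatment. The mitochondrial share of UMIs was 5.83% to 6.20% under DMSO, 6.08% to 9.71% under TSA and 1.51% to 1.55% under E6R. In E6R replicate 2, 1% of the cells carried 22.5% of the UMIs. UMIs were summed per library, so a level cannot tell fewer expressing cells from less RNA per cell. Unless said otherwise, levels are in CPM after TMM scaling (UMI counts per 1000000 UMIs, adjusted for composition). The marker sums above are in CPM without TMM scaling. Groups were compared with edgeR's quasi-likelihood test over 16763 genes, adjusted by Benjamini-Hochberg over all of them, with an adjusted p under 0.05 as a call.

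**Figure D1:**
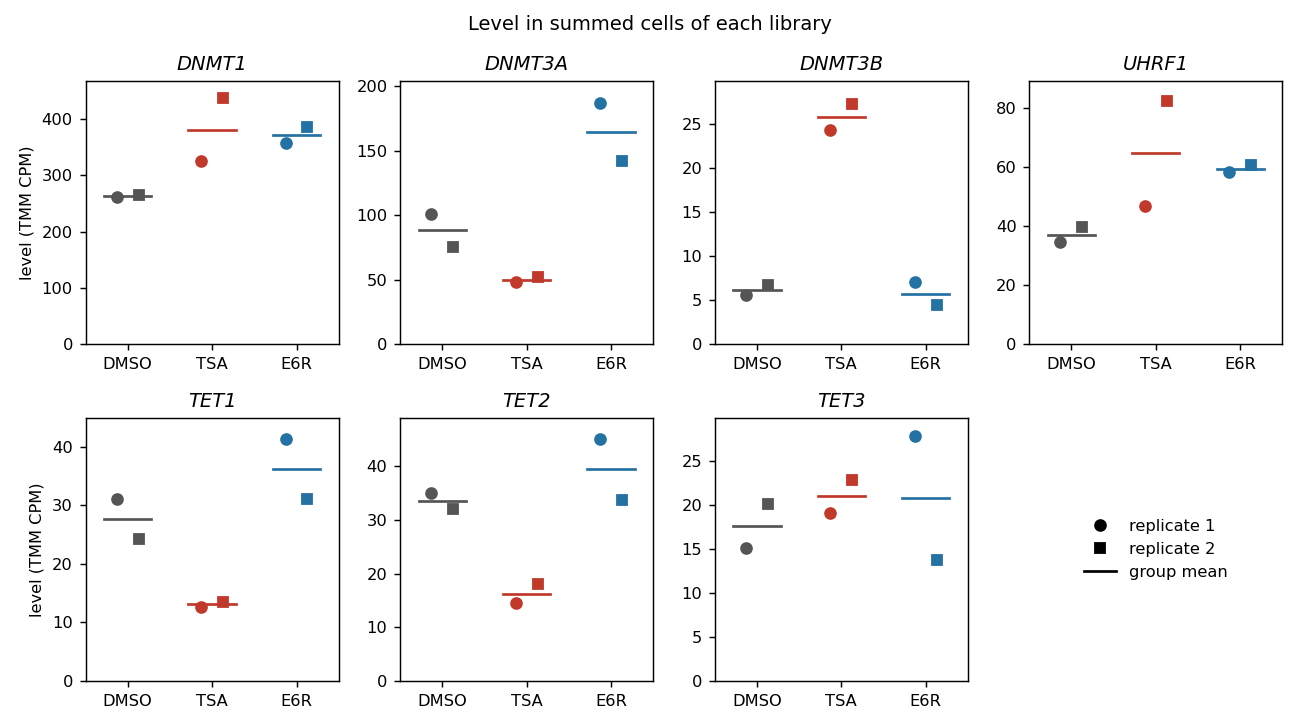
Level of each gene in TMM CPM (y axis, from 0) in the 2 libraries of DMSO, TSA and E6R (x axis). Points are libraries and bars are group means. DNMT3B stood at 24.3 and 27.3 CPM under TSA against 4.40 to 7.08 elsewhere, and DNMT3A, TET1 and TET2 were lowest under TSA.

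Under TSA 1 writer rose while another writer and 2 erasers fell. DNMT3B, a de novo writer, rose 4.21-fold, while the other de novo writer, DNMT3A, fell to 0.566 of its DMSO level and the erasers TET1 and TET2 fell to 0.474 and 0.484. In total 4 of the 7 genes were called, 1 higher and 3 lower, where 29.7% of all tested genes were called, 16.2% higher and 13.5% lower. By TMM-scaled levels alone, 3 genes (DNMT1, DNMT3B and UHRF1) were higher and 3 lower in both TSA libraries than in both DMSO libraries. Of all genes 71.3% did not overlap, 36.7% higher and 34.6% lower. Without TMM scaling, UHRF1 in TSA replicate 1 (43.3 CPM) was not above DMSO replicate 2 (43.4 CPM). The median log2 fold change of the 7 was 0.25, against -0.01 over all genes. Over all genes 2720 were called higher and 2255 lower, and scaling by total counts in place of TMM moved this to 1717 and 3361 and the median of all genes to -0.32, while the same 4 members were called.

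E6R gave no call in the 7 genes at adjusted p under 0.05 by edgeR, and none among all 16763 genes (0.0% called). At an unadjusted p under 0.05, edgeR marked 2913 genes, and DESeq2 called 424 in place of 0, and edgeR with the replicate number as a block called 19. Among the 7, DNMT1, UHRF1 and DNMT3A had unadjusted p values of 0.0459, 0.0425 and 0.00423. These 3 were also higher in both E6R libraries than in both DMSO libraries and none was lower, where 47.3% of all genes did not overlap, 24.6% higher and 22.7% lower. DESeq2 called DNMT3A (adjusted p = 0.0258), and edgeR with no filter on low counts called DNMT3A (0.0041) and UHRF1 (0.0482). Under E6R 6 of the 7 were fitted higher than under DMSO, and their median log2 fold change was 0.39 where that of all genes was 0.03. The lower mitochondrial share of the E6R libraries moves with this comparison, and without MT- and ribosomal protein genes 0 of the 7 were called as well.

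The direct comparison of the treatments called 4 of the 7 genes, the same 4 that TSA changed against DMSO. DNMT3A, TET1 and TET2 were higher and DNMT3B was lower under E6R than under TSA, where 38.2% of all genes were called, 18.7% higher and 19.5% lower. The levels of these 4 did not overlap between the treatments, where 72.6% of all genes did not overlap, 33.7% higher and 38.9% lower. The comparisons of TSA and of E6R with DMSO share the DMSO libraries, and those with TSA share the TSA libraries, so they are not independent of each other.

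**Figure D2:**
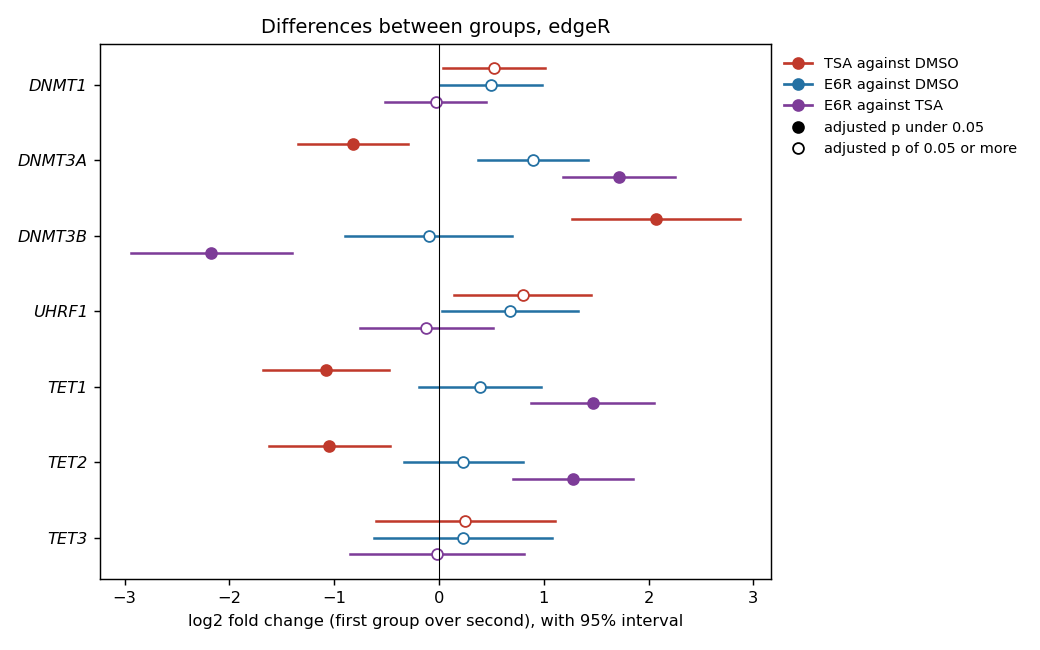
Fitted log2 fold change (x axis) of each gene (y axis) in the 3 comparisons, with its 95% interval, which is not adjusted for the number of genes. Filled points have an adjusted p under 0.05: DNMT3A, DNMT3B, TET1 and TET2 in both comparisons with TSA, and none in E6R against DMSO.

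DNMT1, the maintenance methyltransferase, stood at 262 and 266 CPM under DMSO, at 325 and 436 under TSA and at 358 and 386 under E6R. Every treated library was above both DMSO libraries, and the ranges of TSA and E6R overlapped. Neither difference from DMSO passed the test: the log2 fold change was 0.53 ± 0.21 (SE, n = 2 against 2) under TSA with an edgeR adjusted p of 0.0933, and 0.50 ± 0.21 under E6R with an adjusted p of 0.279. Between the treatments it was -0.03, with a 95% interval of -0.51 to 0.45, and its sign changed with other settings.

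UHRF1, which guides DNMT1 to replicated DNA, stood at 34.6 and 39.8 CPM under DMSO, at 47.0 and 82.6 under TSA and at 58.3 and 61.0 under E6R. Here too every treated library was above both controls after TMM scaling, and the 2 TSA libraries were far apart, on either side of E6R. Without TMM scaling, TSA replicate 1 at 43.3 CPM was not above DMSO replicate 2 at 43.4 CPM. The log2 fold change was 0.80 ± 0.28 under TSA (edgeR adjusted p = 0.0665) and 0.68 ± 0.28 under E6R (0.272). The TSA value passed the threshold with DESeq2 (0.0440), with no filter on low counts (0.0453), with the replicate number as a block (0.0305), and without TSA replicate 1 (0.0369), E6R replicate 1 (0.0408) or E6R replicate 2 (0.0437). Between the treatments the log2 difference was -0.12, with a 95% interval of -0.75 to 0.51.

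Among pairs of writers, DNMT1 and UHRF1 had the highest Pearson r across the 6 libraries, 0.98 on log2 CPM, given as a description over libraries that share their treatment and depth. The share of UHRF1 in the UMIs of the pair was 11.7% and 13% under DMSO, 12.6% and 15.9% under TSA and 14.0% and 13.6% under E6R. The TSA and DMSO shares overlapped. Of 37 genes of DNA replication that exclude the members, none was called under E6R (0.0% of all genes). There 35 were fitted higher, and their median log2 fold change was 0.65, against 0.03 over all genes. Under TSA 10 of them rose and 1 fell, 29.7% called as over all genes (29.7%, 16.2% higher and 13.5% lower), with a median of 0.25 against -0.01. Their summed level was 2749 to 3134 CPM under DMSO, 3345 to 3744 under TSA and 3690 to 4526 under E6R. In cells of the lowest tercile of the summed replication genes, the E6R log2 fold change was 0.22 for DNMT1 and 0.27 for UHRF1, and the TSA values were 0.44 and 0.71. What part the replication genes had in the levels of DNMT1 and UHRF1 was not tested.

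DNMT3A, a de novo methyltransferase, stood at 101 and 75.5 CPM under DMSO, at 47.9 and 52.0 under TSA and at 187 and 142 under E6R. The 3 groups did not overlap: TSA was lowest and E6R highest. TSA lowered it by a log2 fold change of -0.82 ± 0.23 (edgeR adjusted p = 0.0311). This call was lost without DMSO replicate 1 (0.208), TSA replicate 1 (0.190) or TSA replicate 2 (0.148), with log2 values of -0.56, -0.73 and -0.84. Under E6R the log2 fold change was 0.90 ± 0.23 with a 95% interval of 0.38 to 1.43, but the adjusted p was 0.205. Between the treatments DNMT3A was 3.30-fold higher under E6R, a log2 difference of 1.72 ± 0.23 (edgeR adjusted p = 0.00142).

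DNMT3B, the other de novo methyltransferase, stood at 5.52 and 6.69 CPM under DMSO, at 24.3 and 27.3 under TSA and at 7.08 and 4.40 under E6R. TSA was apart from the other 4 libraries, and E6R and DMSO overlapped. These levels rest on 26 and 35 UMIs under DMSO, 320 and 313 under TSA and 112 and 117 under E6R. The log2 fold change under TSA was 2.07 ± 0.35 (edgeR adjusted p = 0.00492), and 2.03 with an adjusted p of 0.0503 without TSA replicate 2. Under E6R it was -0.10, with a 95% interval of -0.89 to 0.69, and its sign changed when DMSO replicate 2 (0.091) or E6R replicate 2 (0.25) was left out. E6R and TSA differed by a log2 value of -2.17 ± 0.33 (adjusted p = 0.00227).

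The opposite movement of the 2 de novo writers under TSA shows in their joint UMIs, a ratio that does not depend on how the libraries are scaled. DNMT3B made up 5.19% and 8.14% of the UMIs of DNMT3A and DNMT3B under DMSO, 33.6% and 34.4% under TSA and 3.64% and 3.0% under E6R. The 3 groups did not overlap. Exact 95% binomial intervals were 31.3% to 37.6% for TSA replicate 2 and 2.49% to 3.59% for E6R replicate 2. That of DMSO replicate 1 (3.42% to 7.51%) overlapped that of E6R replicate 1 (3.01% to 4.37%) and that of E6R replicate 2. That of DMSO replicate 2 (5.73% to 11.1%) lay above both E6R intervals. Here and below the intervals cover counting error only. The mean under TSA was higher than under DMSO by 27.4 percentage points. The two-sided exact permutation p was 0.333 in each of the 3 comparisons, the smallest that 2 libraries against 2 allow. Transcripts are counted per UMI with no correction for length, so the shares compare groups, not the genes with each other.

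TET1, an eraser with a CXXC domain that binds DNA, stood at 31.0 and 24.3 CPM under DMSO, at 12.7 and 13.5 under TSA and at 41.4 and 31.0 under E6R. TSA was below every other library, and E6R and DMSO overlapped. Under TSA the log2 fold change was -1.08 ± 0.26 (edgeR adjusted p = 0.0180), with adjusted p of 0.121, 0.128 and 0.114 without DMSO replicate 1, TSA replicate 1 and TSA replicate 2. E6R against DMSO gave 0.39, with a 95% interval of -0.19 to 0.97, and E6R against TSA gave 1.47 ± 0.26 (adjusted p = 0.00372).

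TET2, an eraser that is often mutated in blood cancers, stood at 35.1 and 32.1 CPM under DMSO, at 14.4 and 18.1 under TSA and at 45.2 and 33.8 under E6R. Again TSA was lowest with no overlap, and E6R and DMSO overlapped. Its log2 fold change under TSA was -1.05 ± 0.25 (edgeR adjusted p = 0.0179). Without DMSO replicate 1, TSA replicate 1 and TSA replicate 2 the adjusted p was 0.100, 0.149 and 0.0824. E6R against DMSO gave 0.23, with a 95% interval of -0.33 to 0.80. E6R against TSA gave 1.28 ± 0.25 (adjusted p = 0.00573), and 0.0611 without TSA replicate 1.

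TET3, the remaining eraser, stood at 15.1 and 20.1 CPM under DMSO, at 19.1 and 22.9 under TSA and at 27.8 and 13.7 under E6R. All groups overlapped, and the E6R libraries enclosed the rest. Its log2 fold change was 0.25 (95% interval -0.60 to 1.11) under TSA and 0.23 (-0.62 to 1.08) under E6R, and neither passed the test. The TSA value was -0.060 with scaling by total counts, and the E6R value was -0.25 without E6R replicate 1, so no direction is given.

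The makeup of the erasers was different in the TSA libraries. TET3 made up 18.6% and 26.3% of the UMIs of the 3 TET genes under DMSO, 41.3% and 42.0% under TSA and 24.3% and 17.4% under E6R. TSA lay above all other libraries, and E6R and DMSO overlapped. TET1 made up 38.2% and 31.8% under DMSO, 27.5% and 24.8% under TSA and 36.2% and 39.5% under E6R. All TET genes together held 16.8% and 16.5% of the UMIs of the 7 genes under DMSO, 9.42% and 8.35% under TSA and 15.8% and 11.7% under E6R, so both treatments lay below DMSO and TSA lay lowest. The exact two-sided permutation p for TSA against DMSO was 0.333 for each of these shares, the smallest that 2 against 2 allows.

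TET1 and TET2 had a Pearson r of 0.98 over the 6 libraries, DNMT3A and TET1 one of 0.96, and DNMT3B and TET1 one of -0.90, again as descriptions of 3 treatments in 6 libraries. Among 7510 other genes with a mean of at least 20 CPM, those closest to DNMT1 were NOB1 (r = 0.97) and NCAPH (0.97), and those closest to UHRF1 were HK2 (0.96) and RPL37 (0.95). XPOT and PHF23 were closest to DNMT3A (0.996 each), and APBB2 and JAK1 to DNMT3B (0.999 each). GUCY1A1 (0.999) and HNRNPM (0.998) were closest to TET1, ARHGEF6 (0.998) and RNF130 (0.997) to TET2, and TMCO3 (0.99) and HUWE1 (0.96) to TET3. An r above 0.95 was common for the genes that follow the contrast of TSA with the rest: 508 genes reached it with TET1, 491 with DNMT3B, 355 with TET2 and 231 with DNMT3A, but 6 with DNMT1, 4 with TET3 and 3 with UHRF1.

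Shares of cells with at least 1 UMI were compared after each cell was thinned to 1000 UMIs, which left 11937 cells and dropped 15.3% to 46.3% of the cells of a library. DNMT1 was seen in 24.0% and 23.7% of cells under DMSO, 24.6% and 28.1% under TSA and 31.6% and 36.4% under E6R. Its share was thus highest in both E6R libraries, and the lower TSA library was within counting error of DMSO. DNMT3A was seen in 9.77% and 6.96% under DMSO, 4.0% and 3.37% under TSA and 15.5% and 13.4% under E6R, with no overlap of the groups.

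DNMT3B was rare, at 0.505% and 0.595% of cells under DMSO, 2.11% and 2.08% under TSA and 0.546% and 0.494% under E6R. The exact 95% interval of TSA replicate 1 was 1.5% to 2.87%, above that of DMSO replicate 1 at 0.186% to 1.10%. TET2 was seen in 3.29% and 3.15% under DMSO, 0.864% and 0.932% under TSA and 5.0% and 3.99% under E6R. TET1 was seen in 4.04% and 2.56%, then 1.4% and 1.04%, then 4.0% and 3.77%, so that TSA was again lowest. UHRF1 ranged from 4.10% to 6.92% and TET3 from 1.62% to 2.32% over the 6 libraries.

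By this measure 2 members (DNMT1 and DNMT3B) were higher and 4 (DNMT3A and the 3 TET genes) lower in both TSA libraries than in both DMSO libraries, where 23.4% of all tested genes were higher and 39.1% lower. The lower share of TET3 under TSA goes against its CPM, and no order of TET3 is read from these shares. Under E6R 5 members (DNMT1, DNMT3A, UHRF1, TET2 and TET3) were higher and none lower, where 16.0% of all genes were higher and 20% lower. Against TSA, 5 were higher and 1 (DNMT3B) lower under E6R, where 36.1% of all genes were higher and 27.2% lower. Without thinning the shares follow depth as well: the DNMT1 means were 33.2% under DMSO, 48.3% under TSA and 53.8% under E6R, and those of DNMT3A were 14.5%, 14.0% and 33.4%. The series holds a single cell line, so no cell type that lacks these genes was at hand to show the level of free RNA.

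**Figure D3:**
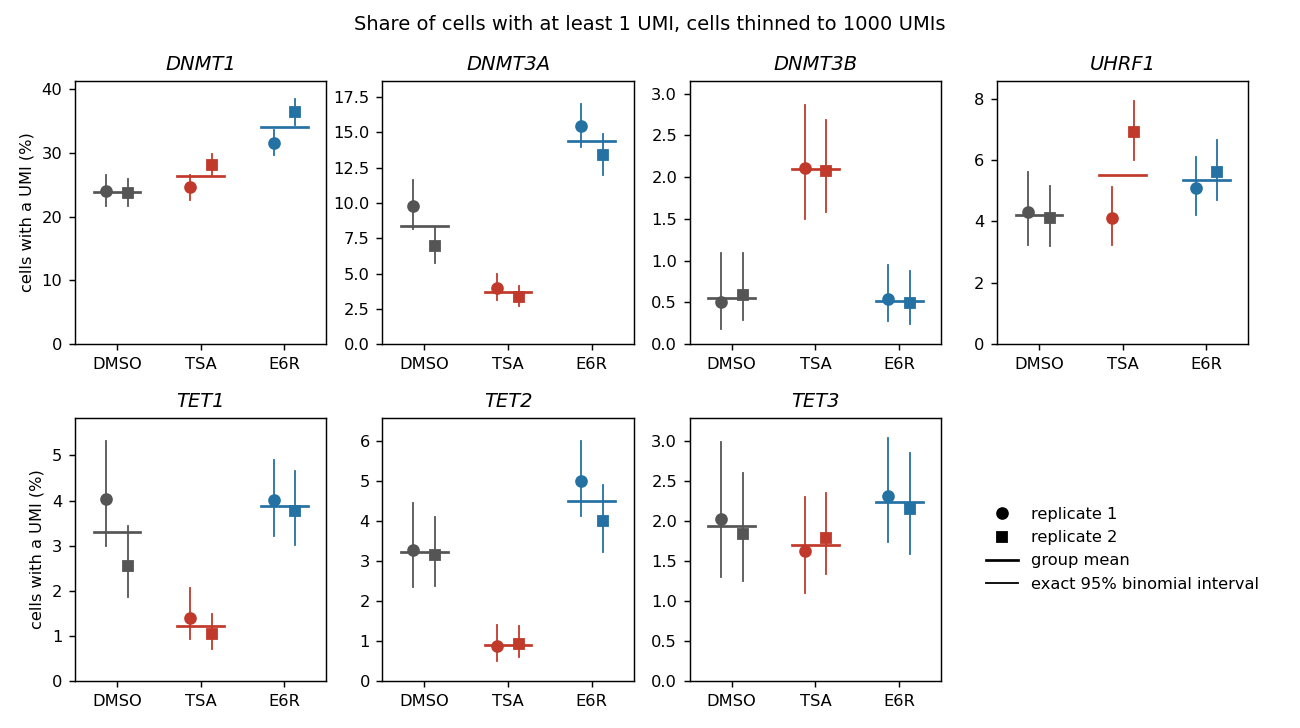
Share of cells with at least 1 UMI of each gene (y axis, percent, from 0) after thinning each cell to 1000 UMIs, in the 2 libraries of each treatment (x axis), with exact 95% binomial intervals. DNMT3A, TET1 and TET2 were lowest under TSA, and DNMT1 and DNMT3A were highest under E6R.

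Within each library, cells were split by their summed UMIs of the 37 replication genes and, separately, of 50 mitosis genes, none of which is a member. These are ranges of a score and not cell types: 360 to 979 cells per library had a replication score equal to a score at either boundary. Levels in these splits are in CPM without TMM scaling, listed in the order DMSO, TSA and E6R, replicate 1 before 2. DNMT1 went from 248 to 347, 261 to 318, 233 to 371, 338 to 398, 319 to 502 and 404 to 554 CPM between the lowest and highest tercile of replication score. It was higher in the highest tercile in 6 of 6 libraries, by 1.18-fold to 1.59-fold. In the mitosis split it was also higher in 6 of 6 libraries, by 1.5-fold to 2.56-fold.

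The background of these splits was genes with a mean of at least 20 CPM that belong to neither score. Of these, 4.20% of 7384 were higher in 6 of 6 libraries by replication score and 4.93% of 7399 by mitosis score. DNMT3B was higher in 6 of 6 libraries by replication score, on 1 to 20 UMIs per class, and in 5 of 6 by mitosis score. At means of 7.11 and 13.5 CPM in the lowest and highest tercile of replication score, it lay below the level of the background genes. With cells thinned to 500 UMIs DNMT1 alone was higher in 6 of 6 by replication score. UHRF1 was higher in 4 of 6 libraries by replication score and in 5 of 6 by mitosis score. When the top and bottom quartile of cells were compared instead, UHRF1 joined DNMT1 and DNMT3B as higher in 6 of 6 by replication score, with 45 against 47 UMIs in TSA replicate 2 and 19 against 22 in DMSO replicate 2. DNMT3A was higher in 4 and lower in 2 by replication score, and 3 and 3 by mitosis score. TET2 was higher in 2 libraries by replication score and in none by mitosis score, with 5 lower and 1 equal. None of the 7 was lower in 6 of 6 libraries, where 2.94% of the background genes were by replication score and 4.70% by mitosis score. The order of the treatments was the same in both classes for DNMT3A and TET2: in the lowest and in the highest tercile of replication score alike, both TSA libraries were below all others.

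**Figure D4:**
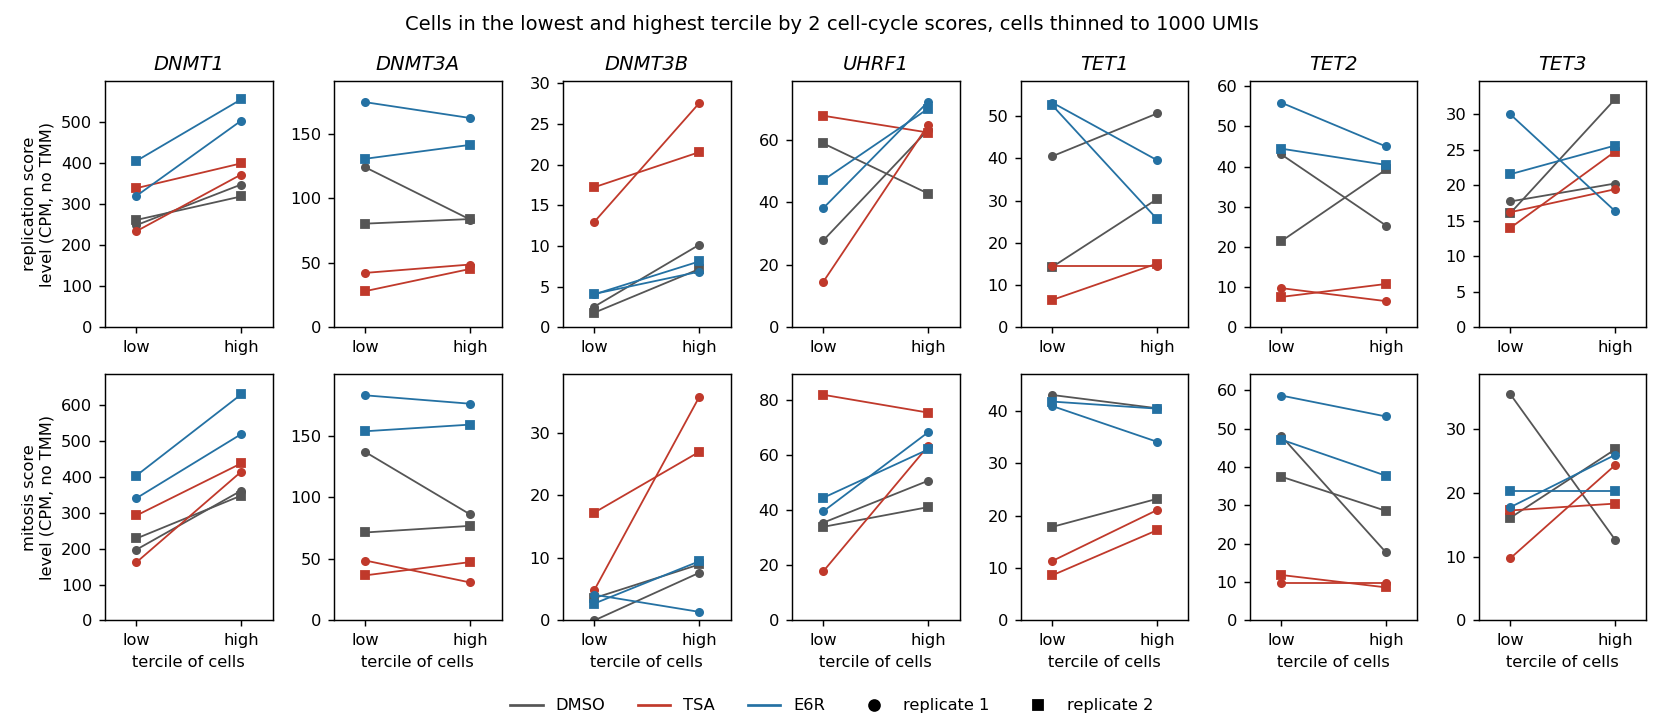
Level of each gene (y axis, CPM without TMM scaling, from 0) in the lowest and highest tercile of cells (x axis) of each library by replication score (top row) and mitosis score (bottom row), with cells thinned to 1000 UMIs. Lines join the 2 terciles of a library. The DNMT1 lines rise in 6 of 6 libraries in both rows.

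Genes that work with the members were read from the same fit in 4 lists of 53 genes, of which 50 were tested. Under TSA 9 rose and 8 fell, 34% of those tested against 29.7% of all genes. E6R against DMSO called none, and E6R against TSA called 21 (42% against 38.2% of all genes), 15 higher and 6 lower. Their median log2 fold change was -0.0089 under TSA, 0.23 under E6R and 0.39 for E6R against TSA, where the medians over all genes were -0.01, 0.03 and -0.09.

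Of the partners of maintenance and de novo methylation, 17 of 20 were tested. Under TSA 3 rose (KDM1B, DMAP1 and LIG1) and 3 fell (NSD1, USP7 and SUV39H1), where 16.2% of all genes were called higher and 13.5% lower. NSD1, which writes the histone H3 lysine 36 methylation that de novo writers read, stood at 78.8 and 110 CPM under DMSO, 23.7 and 27.8 under TSA and 114 and 94.8 under E6R, a log2 fold change of -1.88 ± 0.24 under TSA (edgeR adjusted p = 0.00191). USP7, a deubiquitinase that binds DNMT1 and UHRF1, stood at 161 and 177 CPM under DMSO, 53.9 and 51.7 under TSA and 218 and 163 under E6R, a log2 fold change of -1.68 ± 0.21 (0.00189). For both genes the TSA libraries lay below the other 4, and E6R and DMSO overlapped.

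KDM1B, a histone demethylase needed for methylation in oocytes, went the other way, from 15.1 and 21.6 CPM under DMSO to 56.4 and 54.4 under TSA, with 14.1 and 13.4 under E6R. Its log2 fold change under TSA was 1.59 ± 0.25 (edgeR adjusted p = 0.0038). DMAP1, which binds DNMT1, went from 29.5 and 23.0 to 48.8 and 53.7 CPM under TSA (adjusted p = 0.0172), a call lost without DMSO replicate 2 (0.133), TSA replicate 1 (0.0754) or TSA replicate 2 (0.111), with total counts (0.0690), with thinned cells (0.0786) and in the lowest tercile of replication score (0.0642).

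Against TSA, E6R had 8 of the 17 tested partners higher and 2 (KDM1B and DMAP1) lower. Of all genes 18.7% were called higher and 19.5% lower. CDCA7, which recruits the remodeller HELLS, stood at 3.49 and 5.40 CPM under TSA, 7.01 and 7.84 under DMSO and 15.4 and 22.3 under E6R, a log2 difference of 2.08 ± 0.36 between the treatments (edgeR adjusted p = 0.00372). The call of DMAP1 in this comparison was lost without TSA replicate 2 (0.0553). E6R against DMSO left none called, and the smallest p values belonged to PCNA, the replication clamp (98.6 and 98.7 CPM under DMSO, 168 and 204 under E6R), and HELLS (107 and 104, then 170 and 189), both with an edgeR adjusted p of 0.205. DESeq2 called both, with adjusted p of 0.00308 and 0.0108.

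Among 11 readers of methylated or unmethylated CG sites, TSA raised MBD1 and lowered MBD3, ZBTB38 and ZBTB33. Of all genes 16.2% were called higher and 13.5% lower under TSA. MBD1, a methyl-CG binding protein, went from 22.3 and 24.5 CPM to 52.5 and 56.7 under TSA, with 21.4 and 22.2 under E6R (log2 fold change 1.22 ± 0.21, edgeR adjusted p = 0.00518, and 0.0511 without TSA replicate 2). MBD3, a subunit of the NuRD deacetylase complex, went from 171 and 130 to 57.3 and 55.0 CPM under TSA, with 121 and 108 under E6R (log2 fold change -1.43 ± 0.21, adjusted p = 0.00292). ZBTB38, a zinc finger reader, went from 35.5 and 40.9 to 14.1 and 19.3 CPM under TSA (adjusted p = 0.0111), a call lost without TSA replicate 1 (0.100) and with thinned cells (0.0680). Each of these was called in the opposite direction for E6R against TSA, as was ZBTB33 at 32.2 and 19.0 CPM under E6R and 8.13 and 7.23 under TSA (adjusted p = 0.0048, and 0.0572 without TSA replicate 2). E6R against DMSO called no reader, and the smallest p values were those of ZBTB33 (edgeR adjusted p = 0.312) and MBD3 (0.348).

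Partners of TET enzymes and genes of base excision held the largest fitted rise and the largest fitted fall of the 4 lists under TSA. CXXC5, a CXXC protein known to bind TET2, stood at 170 and 183 CPM under DMSO, 21.5 and 18.5 under TSA and 138 and 117 under E6R. Its log2 fold change under TSA was -3.14 ± 0.21 (edgeR adjusted p = 0.000489). GADD45B, a stress-induced gene linked to active demethylation, stood at 18.5 and 10.1 CPM under DMSO, 158 and 114 under TSA and 19.5 and 14.5 under E6R, a log2 fold change of 3.26 ± 0.34 under TSA (adjusted p = 0.00115). Both genes returned a call of opposite sign for E6R against TSA (2.67 ± 0.20 and -3.00 ± 0.33).

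UNG, a uracil glycosylase of base excision, stood at 25.3 and 23.5 CPM under DMSO, 9.34 and 10.6 under TSA and 50.2 and 48.2 under E6R. Its 3 groups did not overlap. TSA lowered it (log2 fold change -1.29 ± 0.22, edgeR adjusted p = 0.00539, and 0.0590 without TSA replicate 1). In the lowest tercile of replication score it was -0.82 and was not called (0.125). The E6R value of 1.01 ± 0.22 had an adjusted p of 0.205 by edgeR and 0.00997 by DESeq2. IDH1, an isocitrate dehydrogenase that makes the 2-oxoglutarate used by TET enzymes, went from 53.3 and 61.0 to 149 and 155 CPM under TSA (adjusted p = 0.00554). For E6R against TSA its call was lost without TSA replicate 1 (0.0542) or TSA replicate 2 (0.0687). APEX1, the nuclease that acts after the glycosylases, was at 165 and 132 CPM under DMSO and 260 and 225 under E6R (edgeR adjusted p = 0.211, DESeq2 0.0463).

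Among 7 genes of the methyl donor cycle, TSA raised MTRR and AHCYL1, where 16.2% of all genes were called higher and 13.5% lower. MTRR, which keeps methionine synthase active, went from 13.2 and 11.9 to 27.2 and 23.2 CPM (edgeR adjusted p = 0.0205). AHCYL1, a homolog of the enzyme that clears S-adenosylhomocysteine, went from 260 and 230 to 451 and 385 CPM (0.0210). Leaving out any library of these groups ended both calls, with adjusted p of 0.0698 to 0.132 for MTRR and 0.0561 to 0.145 for AHCYL1. They also ended with total counts (0.0783 and 0.128) and with thinned cells (0.0944 and 0.0523), and that of AHCYL1 in the lowest tercile of replication score (0.0853). MTRR was at 24.2 and 20.4 CPM under E6R, with an edgeR adjusted p of 0.215 against DMSO.

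**Figure D5:**
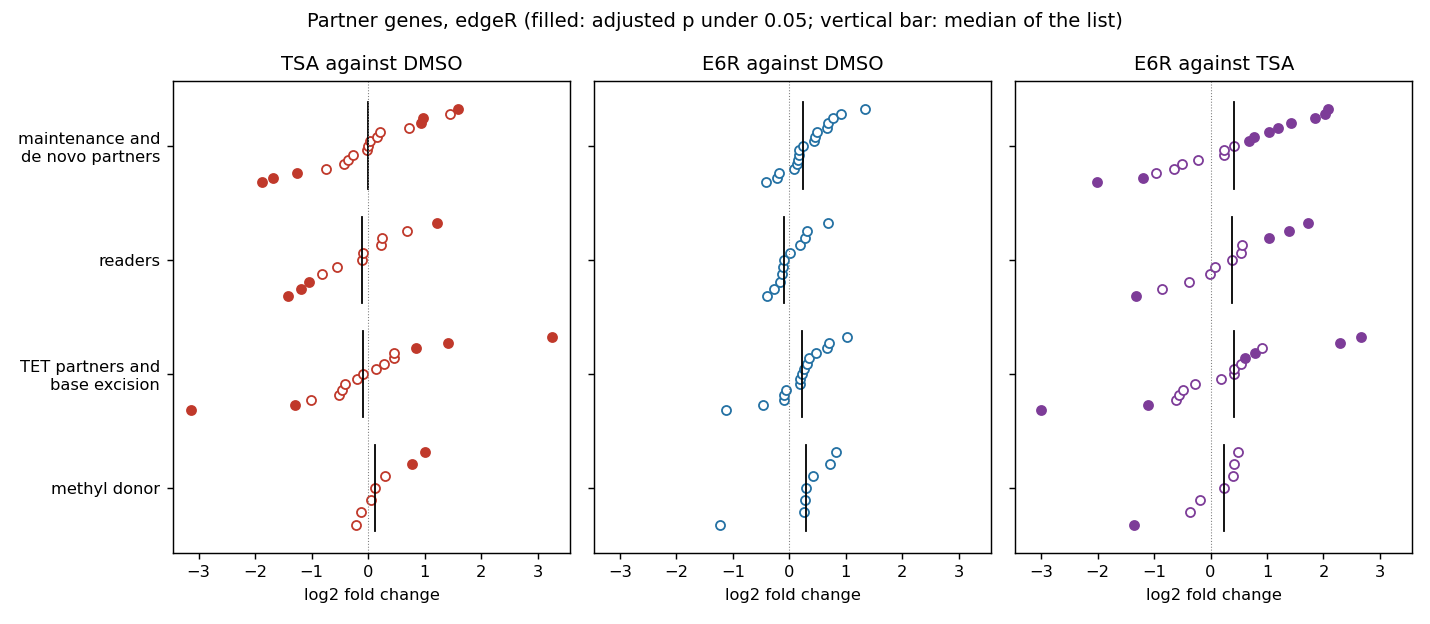
Fitted log2 fold change (x axis) of the 50 tested partner genes in 4 lists (y axis, sorted within a list) in the 3 comparisons. Filled points have an adjusted p under 0.05 and vertical bars are list medians. CXXC5 at -3.14 and GADD45B at 3.26 are the outermost points under TSA, and no point is filled for E6R against DMSO.

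Germline genes, which many somatic cells keep silent by promoter methylation, stayed near the detection limit in most cases. Of the 32 listed, 3 had no UMI in any library and 6 passed the filter on low counts, in part through the TSA libraries where they were high, so counts are given as a description and no test is read for the low ones. TEX19 had 7 and 5 UMIs under DMSO, 97 and 86 under TSA and 11 and 29 under E6R, or 1.49 and 0.956, 7.37 and 7.49, and 0.695 and 1.09 CPM. GTSF1 had 3 and 1 UMIs under DMSO, 69 and 39 under TSA and 4 and 0 under E6R, where a count of 0 allows up to 0.115 CPM.

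TEX14 had 3 and 10 UMIs under DMSO, 50 and 47 under TSA and 3 and 11 under E6R. For TEX19, GTSF1 and TEX14 alike the TSA libraries had the most UMIs. TDRD1 was the exception in level, at 63.1 and 49.5 CPM under DMSO, 33.1 and 30.6 under TSA and 89.8 and 79.5 under E6R. It fell under TSA (log2 fold change -0.82 ± 0.21, edgeR adjusted p = 0.0220), a call lost without DMSO replicate 1 (0.152), TSA replicate 1 (0.113) or TSA replicate 2 (0.166) and in the lowest tercile of replication score (0.0521), and was higher under E6R than under TSA (0.00199). Its E6R value against DMSO, 0.59 ± 0.21, had an adjusted p of 0.228. The MAGE genes of the list, at 0 to 15 UMIs per library, did not pass the filter.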

How the data were processed

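Per the submitters' processing notes, the authors used STARsolo 2.7.9a and GRCh38; the sources used here give neither filters nor the counting rule for strand. Each deposited matrix holds raw UMI counts per gene and barcode of 1 library. From these, barcodes with at least 500 genes and at most 20% MT- UMIs were kept as cells, and UMIs were summed per library, since cells are not replicates. No doublet caller was run. Instead, an alternative left out the 5% of cells with most UMIs.

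Library sums of all 6 libraries were fitted together in edgeR 4.0.16 (R 4.3.3) with TMM scaling, the filterByExpr filter and the quasi-likelihood test, with Benjamini-Hochberg adjustment over 16763 genes. Replicates differed by more than sampling noise (chi-square per degree of freedom 19.7 to 79.3), and the common coefficient of variation was 0.288. DESeq2 1.42.0, other scalings, filters on cells and genes, thinned counts and each library left out were alternatives. Libraries of the same number deviated together, with r of 0.24 for DMSO and TSA, 0.56 for DMSO and E6R and 0.17 for TSA and E6R, but no label states a shared batch, so a fit with the number as a block was an alternative. When a library was left out, the lone library of its group was assumed to vary like the other groups. For shares of cells, each cell was thinned to 1000 UMIs. The edgeR script was tested on simulated counts.

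The members and gene lists were chosen with earlier results of these data known. Besides the 7 members, the text names, per list and comparison, up to 2 rises and 2 falls with the largest fitted change at adjusted p under 0.05 (with none, the 2 smallest p), and per member the 2 genes with the highest Pearson r. LIG1, SUV39H1 and the marker genes were named after their values were seen. Under TSA 14 of 50 mitosis genes rose and 6 fell (16.2% and 13.5% of all genes), and none was called under E6R (0.0% of all genes). For the methyl donor list, 1 gene that the rule names is not reported here.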

Additional observations from a re-analysis of the deposited data

Results flagged for a closer look

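Barcodes with fewer than 500 genes were not used as cells. Their summed UMIs still held the members, some at levels that did not overlap between a treatment and DMSO. Levels are in CPM without TMM scaling (mean ± SD of 2 libraries). DNMT1 was 330.5 ± 17.7 under TSA and 499 ± 42.0 under E6R, and both libraries of each treatment were above both DMSO libraries (295 ± 10.5). DNMT3B was 13.5 ± 3.65 under TSA, above 5.48 ± 1.66 under DMSO in both libraries. Under TSA, DNMT3A was 35.9 ± 4.34 against 97.7 ± 24.4, TET1 was 11.5 ± 1.58 against 26.4 ± 1.58, and TET2 was 11.4 ± 1.33 against 37.95 ± 2.82, each below both DMSO libraries. Under E6R, DNMT3A was 159.7 ± 30.4 against 97.7 ± 24.4, UHRF1 was 68.1 ± 13 against 38.5 ± 3.63, and TET1 was 44.9 ± 4.98 against 26.4 ± 1.58, each above both DMSO libraries. UHRF1 and TET3 overlapped DMSO under TSA, and DNMT3B, TET2 and TET3 did under E6R. The share of all genes without overlap was not taken for these barcodes. In the cells, by TMM-scaled levels, it was 71.3% for TSA and 47.3% for E6R against DMSO. None of these differences was tested.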

How the results depend on the processing

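Over 19 alternatives and 3 comparisons, 341 of 399 member values kept their direction and their side of the threshold, 11 lost and 9 gained a call, and 38 changed sign, none of these called. For the partners and germline genes named, 717 of 773 did, with 47 calls lost, 9 gained and no change of sign.

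Under TSA, between 0 and 5 members, 8 and 19 partner genes and 0 and 3 germline genes were called when a library was left out, against 4, 17 and 3. Thinning cells to 1000 UMIs left 11 partner genes called, where 3309 of 11861 genes were called. Over all genes, 3181 of 13585 were called in the lowest tercile of replication score and 5908 of 31532 with no low-count filter. For E6R against DMSO, no filter called 2 members and 6 partner genes, and DESeq2 called 1 and 7, against 0. For E6R against TSA, leaving out a library gave 10 to 22 partner and 3 to 6 germline genes against 21 and 5, and thinned cells gave 1 germline gene. Calls over all genes fell too in TSA against DMSO when a DMSO or TSA library was left out. In E6R against TSA they fell most when a TSA library was left out. Fewer calls in those fits were thus not particular to the listed genes. The causes were not tested. Over all genes, E6R against DMSO had 1095 calls with no filter, 424 with DESeq2, 19 with the replicate block and 0 by edgeR. Germline genes passed the filter in part through the TSA libraries. No count of their calls is therefore given here, and for them the tally above is a description only.

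Values near 0 changed sign. TET3 under TSA was -0.060 with total counts. DNMT3B under E6R was 0.068 with no filter and 0.66 in the lowest tercile of replication score, and -0.36 to 0.25 with a library left out; TET3 under E6R was -0.25 to 0.70. For E6R against TSA, DNMT1 was 0.013 with DESeq2 size factors, 0.15 with total counts, 0.22 with no filter, 0.045 with DESeq2, 0.051 at most 10% MT- UMIs, 0.13 without the 5% of cells with most UMIs, 0.21 with thinned cells, 0.030 with only these 2 groups, 0.064 without MT- and ribosomal protein genes, and -0.22 to 0.20 with a library left out. In the same order TET3 was 0.028, 0.16, 0.23, 0.063, 0.077, 0.038, 0.17, 0.042 and 0.079, with 0.012 at 300 or more genes, 0.053 in the lowest tercile of replication score and -0.54 to 0.43 with a library left out. UHRF1 was 0.070 with total counts, 0.14 with no filter and -0.47 to 0.34 with a library left out.

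For shares of positive cells, no thinning gave 4 members higher and 0 lower under TSA, and 300 or more genes gave 1 higher, against 2 and 4. The share over all genes was taken only in the main setting, so these alternative counts have no background beside them. With a library left out, E6R had 0 to 1 members lower than DMSO and 1 to 2 lower than TSA; thinning to 500 UMIs gave 2 lower than TSA, against 1. Without the 5% of cells with most UMIs, the UHRF1 share of the DNMT1 and UHRF1 UMIs differed by 0.288 percentage points for E6R against DMSO and -2.80 against TSA. Thinning to 500 UMIs left 1 member, and splitting by quartiles gave 3, against 2, higher in 6 of 6 libraries by replication score. Total-count scaling, added after seeing the data, gave r of 0.95 for DNMT1 and UHRF1.

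With the replicate number as a block, 5, 0 and 4 members were called for TSA against DMSO, E6R against DMSO and E6R against TSA. The partner genes called were 19, 0 and 23. Over all 16763 genes this fit called 6047, 19 and 7567, against 4975, 0 and 6408 without the block. UHRF1 under TSA gained a call (adjusted p = 0.0305), and no other call of a member or named gene changed. Depth limits the low genes: DNMT3B rested on 26 to 35 UMIs per DMSO library.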
